A study of Mus musculus with 6 samples.

Results

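The K63 and linear ubiquitin regulators described here are 10 genes whose products build, hold or cut the ubiquitin chains of NF-kB signalling: Rnf31, Rbck1, Sharpin, Cyld, Otulin, Tnfaip3, Tnip1, Itch, Ube2n and Ube2v1. They were chosen by name, as the rows whose symbol equals one of these, and all 10 were found among the 27761 rows of the deposited table of mouse bone marrow B220+ cells. B220 is a form of CD45 that marks B-lineage cells, and plasmacytoid dendritic cells carry it too. The knockout group, titled PELI2-CKO, had the genotype PELI2 knockout, and the control group had the genotype WT, with 3 libraries each. The labels used here name no Cre driver, floxed allele, strain, age or sex, and do not say whether replicates are separate mice, so the p-values measure only the spread between these libraries. Messenger RNA was measured by single-end sequencing and is given as FPKM, a read density scaled by transcript length and library size.

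Ubiquitin can be joined into chains through its lysine 63 (K63) or head to tail through its first methionine (linear chains). Ligases of Toll-like, interleukin-1 and TNF receptor signalling, Pellino proteins among them, build K63 chains with the E2 pair of Ube2n and Ube2v1. The linear ubiquitin chain assembly complex, made of the products of Rnf31, Rbck1 and Sharpin, then adds linear chains. Both chain types hold the kinases that activate NF-kB, and Otulin, Cyld and the Tnfaip3 product A20 oppose them. Loss of A20 releases NF-kB signalling in many cell types, B cells included, and loss of Cyld or Otulin does so in some cell types.

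Depth, read from the whole-read steps of the low values, was 16600000 to 18100000 reads per library, so that at the lowest depth 16.6 reads make 1 FPKM for a transcript of 1 kb. In the libraries labelled PELI2 knockout (hereafter knockout-labelled) Peli2 itself was at 3.07, 2.70 and 2.47 FPKM, against 2.03, 2.54 and 1.99 FPKM in the WT libraries. The target was therefore not lower under its label (two-sided exact permutation test, p = 0.2, where 3 against 3 libraries cannot go below 0.1), although a value per gene would not show the loss of single exons. Every direction given here is that of the label. The summed FPKM of 16 B lineage markers was 2286 to 2383 in the knockout-labelled libraries and 2735 to 3210 in WT, so the B lineage was present in both and the groups did not overlap. For 16 neutrophil and granulocyte markers the sum was 12327 to 14568 in knockout-labelled and 7872 to 10891 in WT libraries, and for 12 erythroid markers 14268 to 18131 in knockout-labelled and 9407 to 13681 in WT libraries. The monocyte and macrophage sum was 1082 to 1386 with the knockout label and 740.5 to 1058 in WT, that of 9 plasmacytoid dendritic cell markers 1057 to 1228 with the label and 1015 to 1061 in WT. T and NK cell markers summed to 121.7 to 151.2 with the label and 103.2 to 125.3 in WT, and plasma cell markers to 658.1 to 845.4 with the label and 651.7 to 716.6 in WT. Single genes of these 2 lists went both ways: 8 tested T and NK markers had a higher and 3 a lower mean with the label, and 4 plasma cell markers a higher and 3 a lower mean. No marker in these lists was at 0 in any library. None passed limma at an adjusted p under 0.05, and the lowest, in the granulocyte list, was 0.0908. A sum gives most weight to the most abundant genes. All 16 granulocyte markers had a higher mean with the label, but their log2 fold changes ran from 0.06 to 1.65. Of the 16 B lineage markers 15 had a lower and 1 a higher mean. With the mean of the granulocyte markers as a covariate, the difference of Rnf31 moved to -0.03. Those of Sharpin, Tnfaip3 and Ube2n turned positive, as given beside each gene. The granulocyte sums did not overlap between the groups, so in 6 libraries this fit can hardly separate the covariate from the label, and no conclusion is drawn from it. The part of granulocytes or of any other list in the differences was not tested. In such a mixture fewer cells of a type and less RNA per cell cannot be told apart.

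The 10 genes spanned a wide range of levels and held the same order of means in both groups. Tnfaip3 was highest by far, with a mean of 102.2 FPKM over the 6 libraries, above 96.5% of all 12953 genes tested. Rbck1 followed at 43.4 FPKM, Otulin at 30.2, Sharpin at 24.9, Tnip1 at 19.6, Ube2n at 18.5, Rnf31 at 16.6, Itch at 13.4 and Cyld at 8.53 FPKM. The row of Ube2v1 came last at 0.770 FPKM, a value that shared sequence makes uncertain and may place too low, the only member under the filter of 1 FPKM in at least 3 libraries, so the comparison across genes holds 9 members. Along this order the ranges over 6 libraries overlapped for Otulin and Sharpin, for Tnip1 and Ube2n, and for Ube2n and Rnf31, and were apart for the other neighbours. The median coefficient of variation between libraries was 5.15% over the 9 tested members, beside 9.31% over all tested genes. The levels of the 9 lay above 52.9% (Cyld) to 96.5% (Tnfaip3) of all tested genes. Genes of like level were not compared, so the smaller spread is not read as a trait of these members.

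**Figure D1:**
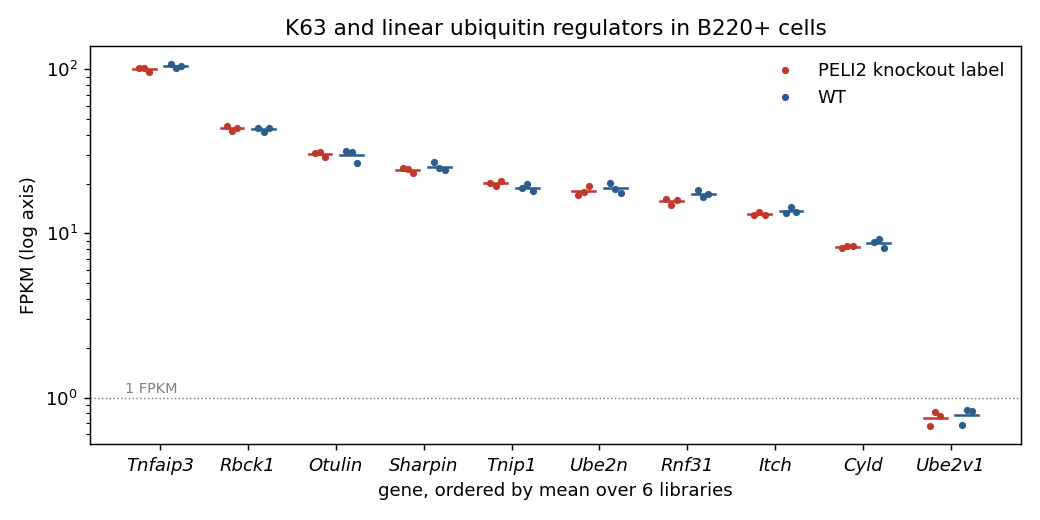
FPKM on a log axis of the 10 genes, ordered by mean level, in the 3 knockout-labelled libraries (red, left of each pair) and the 3 WT libraries (blue, right), with a line at each group mean. Tnfaip3 lies near 102.2 FPKM and Ube2v1 under the dotted line at 1 FPKM, and the red and blue points overlap for every gene but Rnf31.

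The comparison of the groups asks whether any of these regulators differed in cells with the knockout label. None of the 9 tested members passed limma at an adjusted p under 0.05, with adjusted p between 0.250 and 0.867. Over all 12953 tested genes the share that passed was 0.0232% in either direction. At an unadjusted p under 0.05 there was 1 member, Rnf31, lower, beside 18.1% of all tested genes in either direction, 9.2% on the higher and 8.88% on the lower side. Rnf31 was also the only member whose groups did not overlap, which held for 25.8% of all tested genes. By both counts, 1 of 9 members did not stand above the background. In log2(FPKM + 1) the median difference of the 9 members was -0.06, beside -0.01 over all tested genes, and their median absolute difference was 0.07, beside 0.10. Of the 9, 6 had a lower and 3 a higher mean in the knockout-labelled libraries, where 53.6% of all tested genes had a lower mean.

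The intervals of the differences were narrow. Across the 9 members the 95% intervals reached no lower than -0.28 and no higher than 0.22 (log2), which as ratios of FPKM + 1, PELI2 knockout label over WT, are 0.824 and 1.16. Changes of 2-fold lay outside each of them. The interval included 0 for 8 of the 9.

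**Figure D2:**
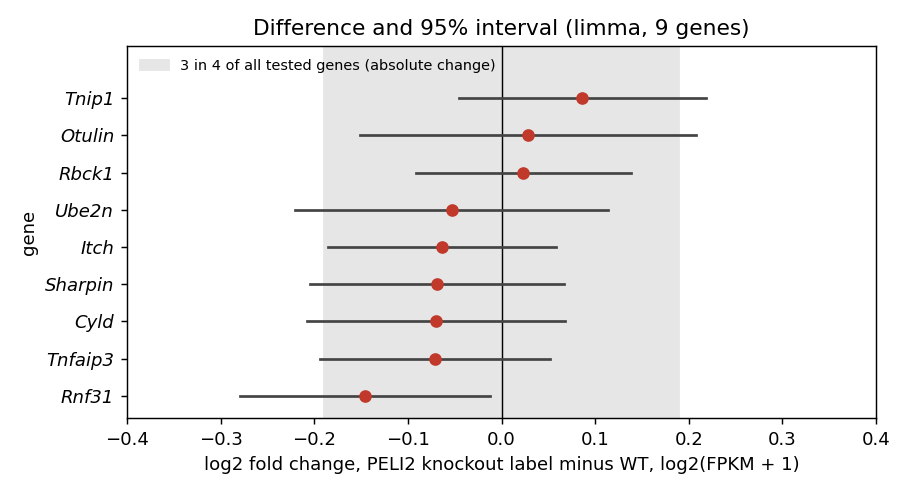
Log2 fold change (PELI2 knockout label minus WT, on log2(FPKM + 1)) of the 9 tested genes as points, with limma 95% intervals as lines. The grey band reaches 0.19 to either side of 0 and holds the differences of 3 in 4 of all tested genes, and all 9 points lie inside it.

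Linear chain assembly held the only member whose groups were apart. Rnf31 (ENSMUSG00000047098, GRCm38 chromosome 14, 55591708 to 55603693, plus strand) encodes HOIP, the catalytic subunit that joins the linear chain. It was at 16.2, 14.9 and 16.0 FPKM in the knockout-labelled libraries, against 18.3, 16.7 and 17.5 FPKM in WT. Each library with the knockout label was lower than each WT library, by a small margin at the nearest pair. The means were 15.7 ± 0.69 FPKM with the knockout label and 17.5 ± 0.81 FPKM in WT (SD, n = 3 each), a log2 fold change of -0.15 with SE 0.06 and a 95% interval of -0.28 to -0.01 (limma, unadjusted p = 0.0364, adjusted p = 0.250). The difference stayed negative in each of the 17 other settings tried, from -0.22 with libraries scaled to equal FPKM totals to -0.03 with the granulocyte marker mean as a covariate, with adjusted p from 0.152 to 0.986. Leaving out 1 library gave -0.18 to -0.11, and the unadjusted limma p was then 0.122 with knockout-labelled replicate 2 left out, 0.0604 with its replicate 3 left out, 0.0972 with WT replicate 1 and 0.0749 with WT replicate 3 left out, and under 0.05 with either of the other 2 left out.

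Sharpin (ENSMUSG00000022552, chromosome 15, 76347040 to 76351111, minus strand), whose product stabilises the complex, was at 24.9, 24.6 and 23.3 FPKM in the knockout-labelled libraries and at 27.1, 25.1 and 24.3 FPKM in WT. The groups overlapped, and the log2 fold change was -0.07 with a 95% interval of -0.20 to 0.07 (limma, adjusted p = 0.548), turning positive with the granulocyte covariate. Rbck1 (ENSMUSG00000027466, chromosome 2, 152316334 to 152332653, minus strand) encodes HOIL-1L, the subunit that binds HOIP through its ubiquitin-like domain. It was at 45.2, 42.2 and 43.8 FPKM in the knockout-labelled libraries, against 43.7, 41.6 and 43.7 FPKM in WT, with a log2 fold change of 0.02 and a 95% interval of -0.09 to 0.14 (limma, adjusted p = 0.824), but negative with libraries scaled to equal FPKM totals. It had the smallest coefficient of variation of the 10 genes, 2.94% over the 6 libraries.

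Ratios between members within a library do not change when a library is scaled by a common factor. Of 7 such ratios, chosen after the levels had been seen and given with no test, only Rbck1 over Rnf31 had groups that did not overlap. It was 2.79, 2.83 and 2.74 in the knockout-labelled libraries, against 2.39, 2.50 and 2.50 in WT. Rnf31, whose own groups were apart, is the denominator, so this ratio is not a separate result. The share of ratios with groups apart among other gene pairs was not computed. Sharpin over Rnf31 averaged 1.55 ± 0.10 in the knockout-labelled libraries and 1.46 ± 0.06 in WT, and Otulin over Rnf31 averaged 1.94 ± 0.15 in the knockout-labelled libraries and 1.71 ± 0.18 in WT (SD, n = 3 each), both with overlapping groups.

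Rnf31 lies 7.31 Mb from Peli2 on the same chromosome, and its last 123 bases overlap the first bases of Irf9 on the same strand. Irf9 encodes the DNA-binding subunit of the factor that acts downstream of interferon receptors. It was at 22.0, 22.5 and 22.9 FPKM in the knockout-labelled libraries, against 26.3, 25.4 and 28.8 FPKM in WT (log2 fold change -0.25, limma adjusted p = 0.151). Irf9 and Rnf31 thus had the same direction, with groups apart in both, as for 14.3% of all tested genes on the lower side. Psme2, a proteasome activator subunit that starts 594 bases upstream on the other strand, was at 26.6, 22.3 and 23.0 FPKM in the knockout-labelled libraries and at 25.1, 27.3 and 34.1 FPKM in WT, with overlapping groups. Of the 5961 windows of 50 bases in annotated Rnf31 transcripts, 74 were also in Irf9 transcripts, which is 1.2%. The share of Rnf31 reads that came from these windows was not tested.

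**Figure D3:**
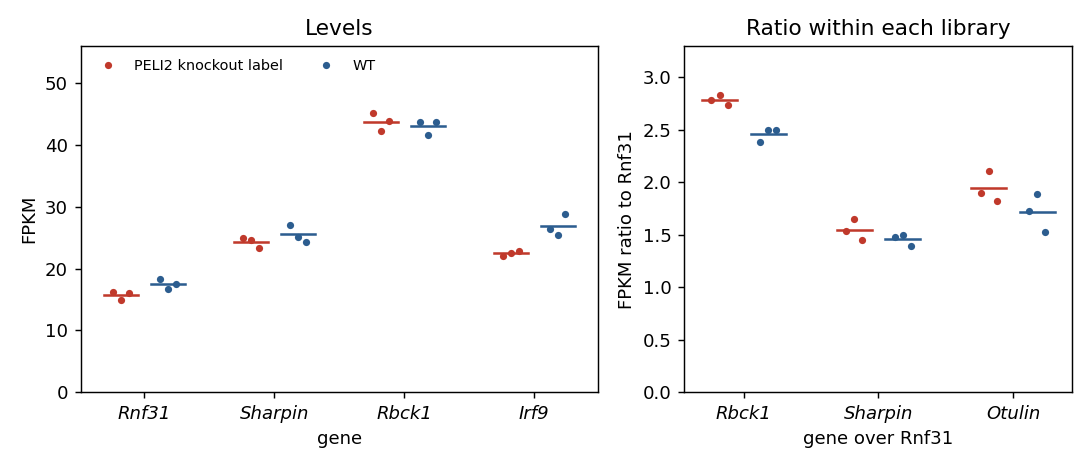
Left, FPKM of the 3 subunit genes of the linear chain complex and of Irf9, which overlaps the end of Rnf31. Right, the FPKM ratio of 3 genes to Rnf31 within each library. Red points are knockout-labelled libraries, blue points WT, and lines are means of 3; red lies under blue with no overlap for Rnf31 and Irf9, and over blue for the ratio of Rbck1 to Rnf31, at 2.74 to 2.83 against 2.39 to 2.50.

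The deubiquitinases of linear chains had nearly equal means in both groups. Otulin (ENSMUSG00000046034, chromosome 15, 27542635 to 27630693, minus strand), which cuts linear chains and no other type, was at 30.7, 31.4 and 29.2 FPKM in the knockout-labelled libraries. In WT it was at 31.5, 31.5 and 26.7 FPKM, so that WT replicate 3 was the lowest of all 6 libraries. The log2 fold change was 0.03 with a 95% interval of -0.15 to 0.21 (limma, adjusted p = 0.867), and it was -0.05 without WT replicate 3 and -0.04 with libraries scaled to equal FPKM totals. Ank, a membrane protein gene on the other strand, overlaps Otulin, but no window of 50 bases was shared between their annotated transcripts. Cyld (ENSMUSG00000036712, chromosome 8, 88697028 to 88751945, plus strand), which cuts both K63 and linear chains and was first known as a tumour suppressor of skin appendages in humans, was at 8.09, 8.43 and 8.36 FPKM in the knockout-labelled libraries. In WT it was at 8.89, 9.23 and 8.18 FPKM, and WT replicate 3 fell within the other group. Its log2 fold change was -0.07 with a 95% interval of -0.21 to 0.07 (limma, adjusted p = 0.549).

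A20 and its partners held the highest level of the set. Tnfaip3 (ENSMUSG00000019850, chromosome 10, 19000910 to 19015657, minus strand), which encodes A20, an NF-kB target that edits and binds ubiquitin chains and so shuts the pathway off, was at 102.4, 101.1 and 95.5 FPKM in the knockout-labelled libraries. The WT libraries were at 107.5, 102.0 and 104.7 FPKM. Replicate 1 with the knockout label lay above WT replicate 2, so the groups overlapped, and the log2 fold change was -0.07 with a 95% interval of -0.19 to 0.05 (limma, adjusted p = 0.496), or 0.02 with the granulocyte covariate. Tnip1 (ENSMUSG00000020400, chromosome 11, 54910785 to 54962917, minus strand) encodes ABIN-1, a ubiquitin-binding partner of A20. It was at 20.28, 19.40 and 20.98 FPKM in the knockout-labelled libraries, against 18.77, 20.04 and 18.17 FPKM in WT. This was the highest positive difference of the 9 members, a log2 fold change of 0.09 with a 95% interval of -0.05 to 0.22 (limma, adjusted p = 0.449), and the groups overlapped. Itch (ENSMUSG00000027598, chromosome 2, 155133509 to 155226855, plus strand), a HECT-type ligase that works with A20 and also acts on its own in T cells, was at 12.8, 13.4 and 12.9 FPKM in the knockout-labelled libraries and at 13.2, 14.4 and 13.4 FPKM in WT. Its log2 fold change was -0.06 with a 95% interval of -0.19 to 0.06 (limma, adjusted p = 0.537). Tnfaip3 over Tnip1 was 4.94 ± 0.34 in the knockout-labelled libraries and 5.53 ± 0.38 in WT (SD, n = 3 each), again with overlap.

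Tnfaip3 and Tnip1 are known as targets of NF-kB, and the sequences before the start sites are shown for where its motif lies. RefSeq windows of 250 bases before to 50 after the start (GRCm38.p6) were at hand for 8 of the 10 genes, 10 windows in all; Sharpin and Itch were not matched. The NF-kB consensus, a motif of 10 letters searched on both strands and chosen after the windows had been read, matched in 3 of the 10 windows, 1 each of Tnfaip3, Tnip1 and Cyld, and in 4.5% of all 32851 windows of 300 bases. The 250 bases before the start of the 3 genes with an NF-kB match are shown 5′ to 3′ on the gene's own strand, with matches in capitals. Tnfaip3 (chr10:19015411-19015660, minus strand) has a match that begins 125 bases and another that begins 12 bases before the start, Tnip1 (chr11:54962941-54963190, minus strand) has 4 matches that overlap each other and begin 56 to 58 bases before it, and Cyld (chr8:88696778-88697027, plus strand) has 1 that begins 155 bases before it. The starts are those of RefSeq. For Tnfaip3 the gene coordinates given above begin at 19015657 on the minus strand, so nearly all of its window, both matches included, lies inside them.
Tnfaip3: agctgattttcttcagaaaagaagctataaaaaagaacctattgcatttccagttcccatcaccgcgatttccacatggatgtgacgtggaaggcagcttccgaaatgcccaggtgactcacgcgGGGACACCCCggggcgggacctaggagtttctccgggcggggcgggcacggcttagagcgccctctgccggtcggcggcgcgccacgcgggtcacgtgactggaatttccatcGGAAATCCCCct
Tnip1: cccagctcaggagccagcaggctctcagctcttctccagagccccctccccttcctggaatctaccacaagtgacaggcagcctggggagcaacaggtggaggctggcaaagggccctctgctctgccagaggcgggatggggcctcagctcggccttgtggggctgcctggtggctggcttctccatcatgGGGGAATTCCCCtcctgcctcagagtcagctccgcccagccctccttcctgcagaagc
Cyld: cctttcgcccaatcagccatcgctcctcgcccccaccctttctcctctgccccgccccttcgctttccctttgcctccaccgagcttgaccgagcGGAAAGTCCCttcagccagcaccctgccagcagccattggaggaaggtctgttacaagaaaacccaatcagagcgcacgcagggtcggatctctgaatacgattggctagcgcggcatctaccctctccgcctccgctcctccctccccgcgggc
The letters are a description of these windows and not a binding site. Of the 3 genes, Tnfaip3 and Cyld had the highest and the lowest level among the 9 tested members, and all 3 had overlapping groups.

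The K63 E2 pair was measured unevenly. Ube2n (ENSMUSG00000074781, chromosome 10, 95515145 to 95545657, plus strand) encodes the active E2 enzyme of K63 chains. It was at 17.1, 17.9 and 19.3 FPKM in the knockout-labelled libraries, against 20.3, 18.7 and 17.6 FPKM in WT. The groups overlapped, with a log2 fold change of -0.05 and a 95% interval of -0.22 to 0.11 (limma, adjusted p = 0.714), positive with the granulocyte covariate. Ube2v1 (ENSMUSG00000078923, chromosome 2, 167607638 to 167632095, minus strand) encodes Uev1a, the E2 variant without an active cysteine that orients the acceptor ubiquitin. Its row was at 0.669, 0.819 and 0.773 FPKM in the knockout-labelled libraries and at 0.684, 0.840 and 0.831 FPKM in WT. The means differed by -0.0313 FPKM (two-sided exact permutation test, p = 0.5, smallest possible 0.1). Ube2n over Ube2v1 was 24.1 ± 1.96 in the knockout-labelled libraries and 24.3 ± 4.59 in WT (SD, n = 3 each).

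The low row of Ube2v1 has to be read with its sequence. Of 2862 distinct windows of 50 bases, the read length, in its annotated transcripts, 1818 were also in transcripts of other genes, 63.5%. Most of them, 1627 windows, were in Gm20431, a gene that overlaps Ube2v1 on the same strand and runs upstream towards Tmem189. No row with this symbol was in the table as given, and a row of this gene without the symbol was not looked for. Whether the counting could give it reads is therefore not known here. How the authors' counting divided such reads is not given in the sources used here, so the value of Ube2v1 is uncertain: where shared reads were given to other genes it is too low, and its last place in the order and its ratio to Ube2n carry the same limit. Tmem189, the next gene upstream, was at 14.5, 14.5 and 14.0 FPKM in the knockout-labelled libraries and at 14.1, 15.1 and 13.6 FPKM in WT. Ube2v2, the other E2 variant that pairs with the Ube2n product, was at 1.231, 1.455 and 1.195 FPKM in the knockout-labelled libraries and at 1.250, 1.586 and 1.309 FPKM in WT, with overlapping groups.

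For Ube2n 9.5% of 4313 windows were shared, and its processed pseudogene Ube2n-ps1 held each of these 410. That pseudogene's own row was at 5.77, 2.94 and 4.58 FPKM in the knockout-labelled libraries and at 3.07, 2.23 and 3.92 FPKM in WT. In the other 8 members the share was at most 2.1%, in Itch, and it was 0 for Rbck1, Sharpin, Otulin, Tnfaip3 and Tnip1.

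**Figure D4:**
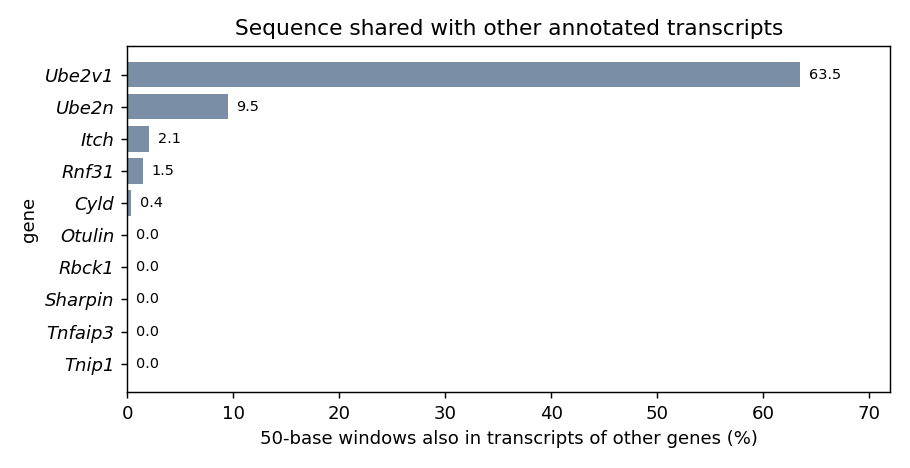
Share of distinct 50-base windows of each gene's annotated transcripts that also occur, on either strand, in annotated transcripts of other genes, in percent. Ube2v1 stands at 63.5% and Ube2n at 9.5%, and the other 8 genes lie between 0 and 2.1%.

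Around the 10 members, 5 further lists held 72 gene symbols of the pathway, of which 67 genes were tested. None of the 67 passed limma at an adjusted p under 0.05 in either direction. At an unadjusted p under 0.05, 6 were higher and 8 lower, which is 20.9% beside 18.1% of all tested genes. The median log2 fold change of the 67 was -0.05, beside -0.01 over all tested genes, and 24 had a higher and 43 a lower mean, where 53.6% of all tested genes were lower. Groups were apart for 6 higher and 11 lower genes of the 67, near the 25.8% of all tested genes.

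Of 17 other ligases and E2 enzymes, listed mainly for K63 chains, 14 had a lower mean, where 53.6% of all tested genes did. Peli2 itself was among the 17, with a higher mean. The median log2 fold change of the 17 was -0.09. An unadjusted p under 0.05 was reached by 3 genes of the 17, each lower. The share over all tested genes was 18.1% in either direction and 8.88% on the lower side, and no conclusion is drawn from 3 genes. Peli1, the relative of Peli2, was at 14.8 ± 0.57 FPKM in the knockout-labelled libraries and 17.4 ± 0.58 FPKM in WT (limma, adjusted p = 0.153). Ube2l3, the E2 that HOIP uses, was at 40.9 ± 1.97 FPKM with the knockout label and 46.3 ± 2.43 FPKM in WT (adjusted p = 0.226). Birc2, a ligase of the TNF receptor complex, was at 19.8 ± 1.03 FPKM with the label and 21.9 ± 0.89 FPKM in WT (adjusted p = 0.272). Traf6, a ligase that makes K63 chains with the Ube2n product, was at 14.4 ± 1.30 FPKM with the label and 17.5 ± 2.61 FPKM in WT (adjusted p = 0.280). These 4 genes were named because they had the smallest limma p of the list. Their groups did not overlap, which that choice favours. The shares over all tested genes, 25.8% in either direction and 14.3% on the lower side, are therefore not a like measure for them.

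Adaptors and kinases that bind the chains were split. Of 17 tested, 10 had the higher mean with the knockout label. The median was 0.01, and an unadjusted p under 0.05 was reached by 3 genes of the 17, each higher. Over all tested genes that share was 18.1% in either direction and 9.2% on the higher side, and again no conclusion is drawn from 3 genes. Ikbke, a kinase related to the IKK enzymes that acts in interferon induction, was at 3.66 ± 0.27 FPKM in the knockout-labelled libraries and 2.52 ± 0.31 FPKM in WT (limma, adjusted p = 0.147). Ripk1, the kinase of the TNF receptor complex that carries both chain types, was at 6.68 ± 0.14 FPKM with the label and 5.52 ± 0.55 FPKM in WT (adjusted p = 0.196), and Irak1, a substrate of Pellino ligases, at 24.6 ± 0.51 FPKM with the label and 22.3 ± 0.79 FPKM in WT (adjusted p = 0.220).

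Of 16 tested genes listed as other deubiquitinases, their relatives or partners, 11 had a lower mean, where 53.6% of all tested genes did. The median was -0.04, and an unadjusted p under 0.05 was reached by 2 higher and 3 lower genes of the 16, beside 18.1% of all tested genes. Fam105a, the neighbour and relative of Otulin now called Otulinl, was at 8.39, 7.78 and 8.52 FPKM in the knockout-labelled libraries, against 5.76, 6.68 and 6.74 FPKM in WT. Its groups did not overlap (log2 fold change 0.32 with SE 0.07, limma adjusted p = 0.147), as for 11.5% of all tested genes on the higher side. Those of Otulin did overlap. Fam105a had the smallest limma p of its list, which favours groups apart. A test of the difference between the neighbours was not made. Otud1 was at 28.4 ± 2.50 FPKM in the knockout-labelled libraries and 36.4 ± 4.96 FPKM in WT, and Stambpl1, which cuts K63 chains, at 26.3 ± 1.28 FPKM with the label and 33.4 ± 4.83 FPKM in WT (adjusted p = 0.206 for both).

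The 6 genes of ubiquitin itself and of its E1 enzymes had a median of -0.13. Of 11 NF-kB feedback and target genes 5 had a higher and 6 a lower mean, with a median of -0.04. Nfkbiz, a nuclear member of the inhibitor family, was at 62.99 ± 3.18 FPKM in the knockout-labelled libraries and 51.0 ± 8.06 FPKM in WT (adjusted p = 0.230), while Nfkbie, a cytoplasmic inhibitor, was at 55.5 ± 2.77 FPKM with the label and 64.7 ± 7.19 FPKM in WT (adjusted p = 0.265). These target genes of NF-kB pointed both ways, and Tnfaip3, itself a target, had overlapping groups.

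**Figure D5:**
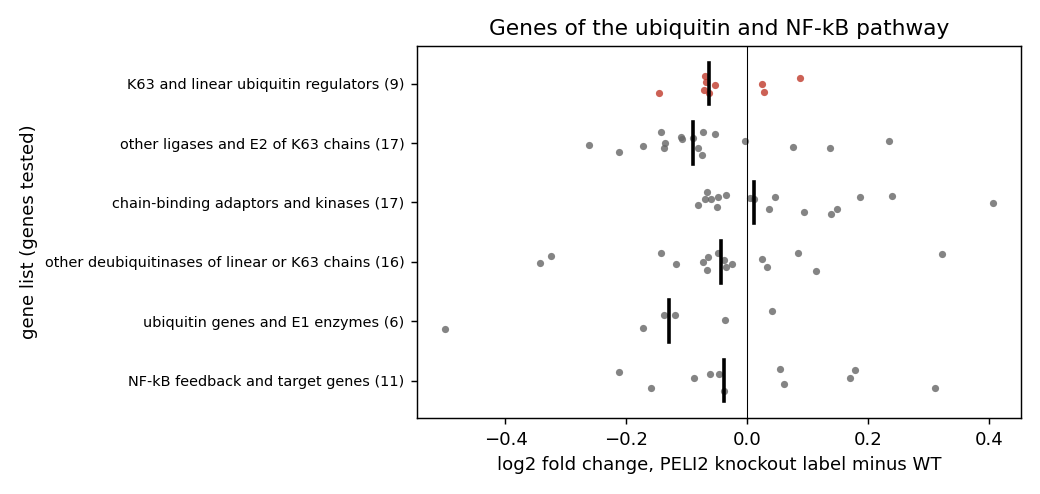
Log2 fold change (PELI2 knockout label minus WT, on log2(FPKM + 1)) of each tested gene in the set of 9 members (red) and in 5 pathway lists (grey), with a black bar at each median and the number tested in brackets. Medians run from -0.13 for ubiquitin and E1 genes to 0.01 for adaptors and kinases, and the 9 members lie in a narrower range than the lists.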

How the data were processed

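The authors deposited 1 table of FPKM per gene for 6 libraries of bone marrow B220+ cells, with no scaling across libraries stated. Named in the submitters' processing notes, without role or order, are GRCm38.p6, DESeq2 1.4.5, RSEM 1.2.12, Bowtie2 2.2.5 and HISAT2 2.0.4. Since FPKM are not counts, log2(FPKM + 1) was tested with limma 3.58.1 in R 4.3.3 (eBayes with a trend, two-sided), for genes that reached 1 FPKM in 3 libraries or more, with Benjamini-Hochberg adjustment over 12953 genes. A fold change on this scale understates that of low genes. Depth was the read total at which FPKM times length came out whole, within 0.03 reads, for 99.2% to 99.5% of the single-transcript genes under 6 reads. Both steps were also run on simulated data made under each step's own model, which checks the code and not its fit to these libraries. The changes simulated for limma were larger than those of the members. The coordinates of the 10 members are the same in GENCODE M21. Members and lists were chosen with earlier results of these data known. The rule names all members, Peli2, overlapping genes and copies, and at most 4 genes per list by p. Alternatives were pseudocounts, filters, scalings, variance settings, a replicate block, a granulocyte covariate and leaving out each library. The results of some list genes are not reported here.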

Additional observations from a re-analysis of the deposited data

How the results depend on the processing

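No alternative called a member or a pathway list gene at an adjusted p under 0.05 (limma). Genes called over the whole table were 3, and 1 with a filter of 5 FPKM, 6 with eBayes without a trend (2 of them lower) and 1 with the granulocyte covariate. Leaving out 1 library gave 2 to 16 genes, all 16 higher without PELI2_knockout replicate 3. Members at an unadjusted p under 0.05 were 1, but 2 with libraries scaled to equal FPKM totals and with quantile normalization, and 0 with eBayes without a trend, with library weights and with the granulocyte covariate. Leaving out 1 library gave 0 to 1. Signs of the log2 fold change turned for Rbck1 (-0.049) and Otulin (-0.044) at equal FPKM totals, and for Sharpin (0.107), Tnfaip3 (0.025) and Ube2n (0.057) with the granulocyte covariate. Leaving out 1 library gave -0.049 (without WT replicate 3) to 0.067 for Otulin, and -0.0816 to 0.0109 FPKM (without PELI2_knockout replicate 1) for the Ube2v1 difference. The cause of these shifts was not tested. Equal FPKM totals moved the median of all genes to -0.08. The replicate block called 4 genes and 0 members. Same-numbered libraries correlated by only 0.036 to 0.101 in their deviations, though each library correlated best with its own number, so the numbers were not taken as pairs. The effect of depth on single members was not tested.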
